A study of Mus musculus with 6 samples.

Results

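The SOX genes encode transcription factors that share the HMG box of SRY, and 10 of them (Sox2, Sox4, Sox5, Sox6, Sox7, Sox9, Sox11, Sox12, Sox13 and Sox21) were followed by gene symbol among the 21959 genes of the count table. RNA of a mouse gastric adenocarcinoma line, MPC, was compared with that of its paclitaxel (PTX)-resistant derivative, MPC-PTX, with 3 libraries per line. MPC came from gastric organoids with floxed Trp53 and Cdh1 alleles and the Mist1-CreER driver, grown as a subcutaneous tumour in mice, and all 6 libraries carry the genotype CDH1-/-;Trp53-/-. MPC-PTX was treated with PTX over 30 cycles, whereas MPC had no such treatment. Both lines were selected as single clones, so that 1 clone stands for each state and the effect of the drug and the choice of clone cannot be told apart. The labels do not say whether the libraries of a line came from separate cultures, so the p-values measure only the spread between these libraries.

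SOX factors bend DNA at short sites related to ACAAT and act with partner factors at enhancers. They are divided by sequence into groups. SOX2 and SOX21 belong to group B, in which SOX2 mainly activates and SOX21 mainly represses shared targets. SOX4, SOX11 and SOX12 form group C, SOX5, SOX6 and SOX13 form group D and lack a transactivation domain of their own, SOX9 is of group E, and SOX7 and SOX17 are of group F. In the gut, SOX2 specifies the foregut and is kept in the adult stomach and oesophagus, SOX9 marks progenitor cells of the glands and crypts, and SOX17 is needed for the endoderm.

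The libraries held 16574580 to 23148182 counts and 13897 to 14295 genes with a count. MPC libraries differed from each other more than MPC-PTX libraries, with a biological coefficient of variation of 17.9% against 3.01%. MPC replicate 3 stood apart: its log2 ratio to MPC replicate 1 was correlated across genes with GC content (Spearman rho −0.55) and with transcript length (rho 0.47), and genes are not independent replicates. Trp53 was counted at 3.25 to 5.77 CPM (the count scaled to a common library size, with library sizes corrected by TMM) in MPC and 5.86 to 6.59 CPM in MPC-PTX, and Cdh1 at 132 to 136 CPM in MPC and 131 to 136 CPM in MPC-PTX. Counts over a whole gene do not show whether the floxed exons are lost, and both lines carry the same genotype. All 9 epithelial markers were detected. Of the gastric genes, Cldn18, Muc1 and Psca were detected in both lines, Ctse and Anxa10 were at 275 and 129 CPM in MPC but at 1.497 and 0.321 CPM in MPC-PTX, and Tff1, Tff2, Gkn2 and Pgc had no count in any library.

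The promoter windows of the 5 SOX genes that passed the test below are shown because they differ in base composition and in matches to SOX motifs. Each is the 250 bases before a RefSeq start (GRCm38.p6), 5′ to 3′ on the strand of the gene, with ACAAT and ACAAAG on either strand in capitals. They lie at chr3:34649745-34649994 (+) for Sox2, chr14:118237031-118237280 (−) for Sox21, chr13:28953700-28953949 (−) for Sox4, chr6:143947107-143947356 (−) for Sox5 and chr7:116038745-116038994 (−) for Sox6, the outermost of 6 Sox6 starts. The Sox5 window belongs to an internal start, 835 kb inside the 5′ end of the gene in GENCODE M21, and the outer Sox5 start is not shown.
Sox2: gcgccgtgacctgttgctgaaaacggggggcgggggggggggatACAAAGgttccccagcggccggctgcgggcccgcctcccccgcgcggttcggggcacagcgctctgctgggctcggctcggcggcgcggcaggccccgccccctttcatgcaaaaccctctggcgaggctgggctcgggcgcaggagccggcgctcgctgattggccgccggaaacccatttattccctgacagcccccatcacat
Sox21: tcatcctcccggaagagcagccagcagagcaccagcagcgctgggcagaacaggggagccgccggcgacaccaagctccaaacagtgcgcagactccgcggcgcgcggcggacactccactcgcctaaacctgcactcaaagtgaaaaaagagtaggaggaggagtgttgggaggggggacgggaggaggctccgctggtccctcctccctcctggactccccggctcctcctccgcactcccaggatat
Sox4: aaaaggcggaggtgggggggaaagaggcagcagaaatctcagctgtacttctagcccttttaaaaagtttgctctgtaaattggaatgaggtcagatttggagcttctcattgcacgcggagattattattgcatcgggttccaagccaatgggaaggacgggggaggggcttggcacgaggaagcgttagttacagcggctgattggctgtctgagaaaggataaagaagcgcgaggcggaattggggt
Sox5: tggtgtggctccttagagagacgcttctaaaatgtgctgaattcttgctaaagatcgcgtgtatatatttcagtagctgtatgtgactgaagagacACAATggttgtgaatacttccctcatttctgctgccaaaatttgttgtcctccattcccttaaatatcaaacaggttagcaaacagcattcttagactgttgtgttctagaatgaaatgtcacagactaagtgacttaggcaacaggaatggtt
Sox6: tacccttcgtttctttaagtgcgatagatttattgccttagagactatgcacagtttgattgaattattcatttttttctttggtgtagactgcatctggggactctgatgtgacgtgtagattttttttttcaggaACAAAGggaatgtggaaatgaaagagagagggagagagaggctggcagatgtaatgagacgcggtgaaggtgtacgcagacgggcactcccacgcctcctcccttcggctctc

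The Sox2 and Sox21 windows held 27 and 17 CpG, with a GC content of 72.0% and 65.2%. Windows of tested genes had medians of 16 CpG and 60% GC, and all windows had medians of 6 CpG and 52.4% GC. The Sox4 window held 11 CpG. The windows of Sox5 and Sox6 held 3 and 9 CpG, that of Sox5 being at an internal start and so not comparable with windows at an outer start. A relation of CpG content to the changes was not tested. ACAAT was in the Sox5 window, and ACAAAG, also the core of TCF/LEF sites, was in the Sox2 and the printed Sox6 window, whereas neither was in the windows of Sox21 and Sox4. Over the 6 Sox6 windows, 3 held ACAAT and 5 held ACAAAG. All but the printed Sox6 window lie at internal starts, 7.7 to 237 kb inside the 5′ end of the gene. They too are not comparable with windows at an outer start. Of all 32851 windows of this length in the table, 27.7% held ACAAT and 16.5% held ACAAAG, and of the windows of tested genes 18.1% and 12.1% did. The 2 motifs share 4 letters but the same bases cannot match both. A match is a string of letters, and no binding was measured. Entries were found for 8 of the 10 members.

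MPC-PTX had more RNA of Sox2, Sox21, Sox5 and Sox6 and less of Sox4 than MPC, whereas Sox9 and Sox13 did not pass the test. Genes were tested with edgeR's quasi-likelihood test, and a gene passed with a Benjamini-Hochberg adjusted p below 0.05 over all 11795 genes tested. Of the 7 members tested, 5 passed in either direction, where 29.7% of all tested genes passed: 4 were higher, where 14.1% of all tested genes were higher, and 1 was lower, where 15.6% were lower. The libraries of the lines did not overlap in 5 of the 7, compared with 46.9% of all tested genes. The log2 fold change was positive in 6 of the 7, compared with 55.2% of all tested genes, and its median was 0.44 over the 7 members and 0.043 over all tested genes. The study's own criterion, used there with DESeq, asks for an unadjusted p below 0.05 and a log2 fold change beyond 1 in size. With edgeR values here, 2 members (Sox5 and Sox6) were higher, beside 3.77% of tested genes, and 0 were lower, beside 4.34%. That number of higher members was 1 with a GC and length correction, without MPC replicate 1 or without MPC-PTX replicate 2, where the log2 fold change of Sox5 was below 1. The unadjusted p was below 0.05 for 4 members higher and 1 lower, beside 20.8% and 20.2% of tested genes, and DESeq2 called 4 and 1, beside 12.3% and 16.6%. Sox7, Sox11 and Sox12 were too low to be tested.

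**Figure D1:**
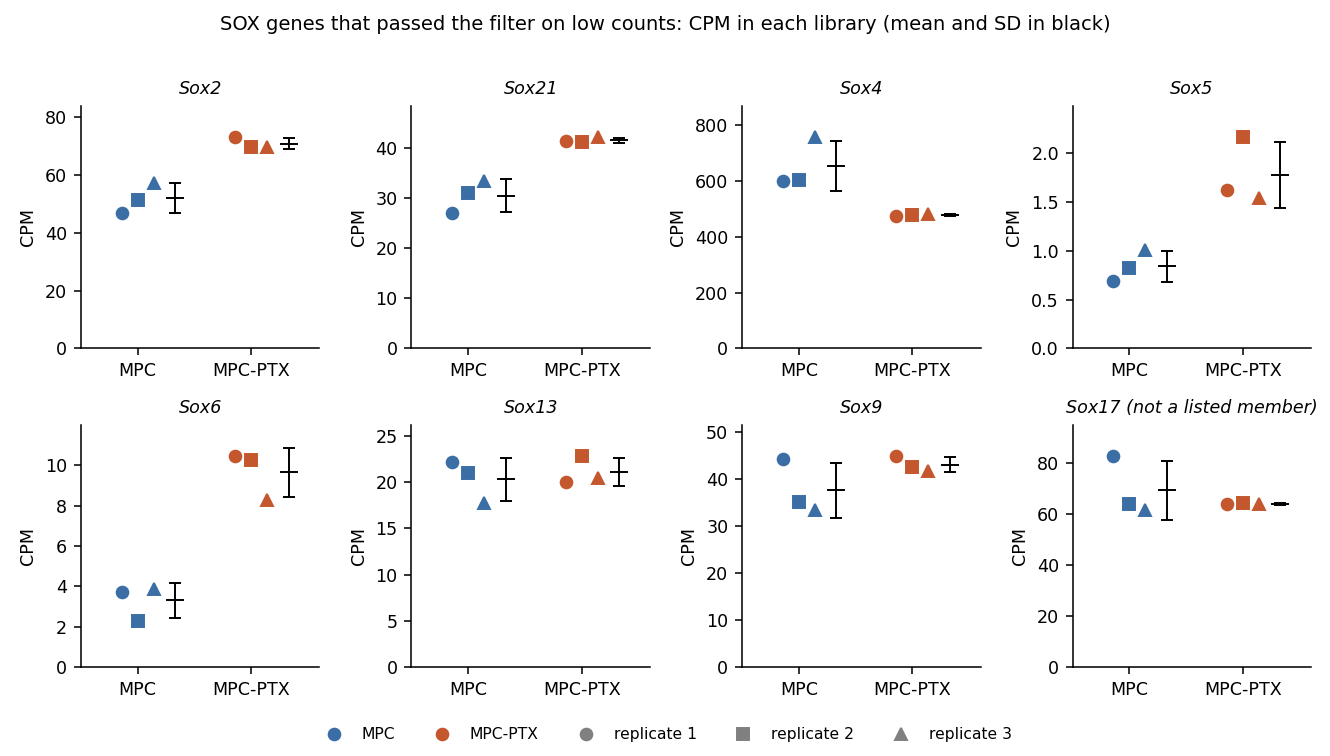
CPM of the SOX genes in each library, with MPC and MPC-PTX side by side, a point per library and the mean with its SD. The MPC-PTX points lie above all MPC points for Sox2, Sox21, Sox5 and Sox6 and below them for Sox4.

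Sox2, the foregut and stomach factor, lies on the forward strand at chr3:34650405-34652461. It was counted at 46.9, 51.2 and 57.3 CPM in the MPC libraries and 72.9, 69.7 and 69.4 CPM in the MPC-PTX libraries. All MPC-PTX libraries were above all MPC libraries, and MPC replicate 3 was the highest of its line. The mean was 51.8 ± 5.20 CPM in MPC and 70.7 ± 1.93 CPM in MPC-PTX (SD, n = 3 each). MPC-PTX exceeded MPC by a log2 fold change of 0.45 (SE 0.089, 95% interval 0.24 to 0.66, adjusted p = 0.00897, edgeR). Without MPC-PTX replicate 1 the adjusted p was 0.0505 (edgeR).

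Sox21, the group B partner that opposes SOX2 activity at shared targets, lies on the reverse strand at chr14:118233232-118237030. Its values were 27.1, 31.0 and 33.4 CPM in MPC and 41.3, 41.1 and 42.1 CPM in MPC-PTX. The lines did not overlap. The log2 fold change was 0.44 (SE 0.095, 95% interval 0.22 to 0.67, adjusted p = 0.0120, edgeR), close in size to that of Sox2. Without MPC-PTX replicate 1, 2 or 3 the adjusted p was 0.0552, 0.0539 and 0.0586 (edgeR).

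Since both group B genes were higher, their counts were set against each other, a comparison chosen after the values were seen. It is 1 of 28 ratios computed between the 8 tested SOX genes, of which 19 did not overlap between the lines, and it varied least of the 28. The ratio of Sox2 to Sox21 counts was 1.73, 1.65 and 1.71 in MPC and 1.76, 1.70 and 1.65 in MPC-PTX, so that the lines overlapped. The ratio of Sox2 to Sox4 counts was 0.0780, 0.0847 and 0.0757 in MPC and 0.153, 0.145 and 0.144 in MPC-PTX, with no overlap. These ratios are given per library without a test, and they are not levels per length.

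**Figure D2:**
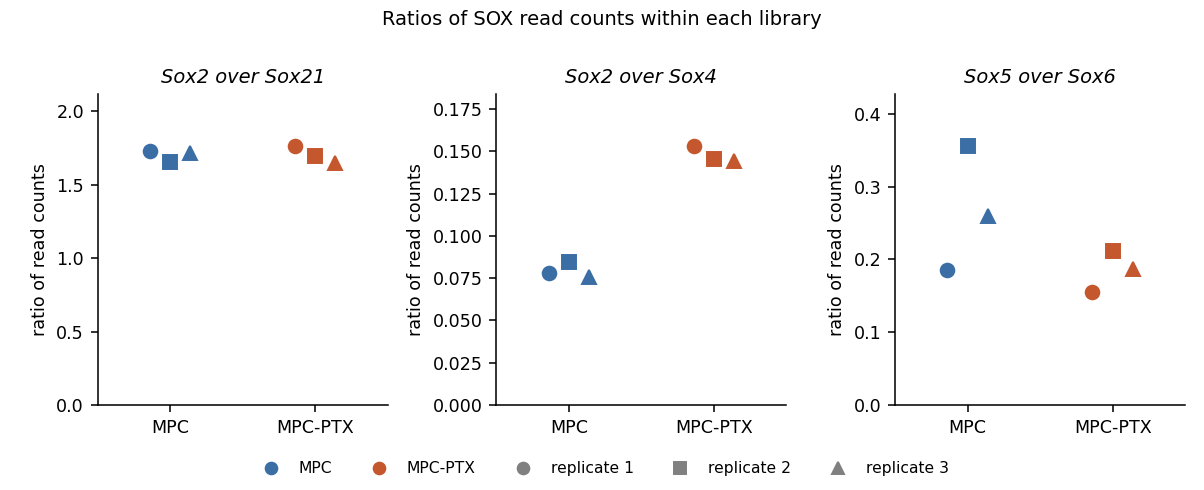
Ratios of read counts between SOX genes, in 3 panels with axes from 0, a point per library of MPC and MPC-PTX. Sox2 over Sox21 stays between 1.65 and 1.76 in the 6 libraries, whereas Sox2 over Sox4 is higher in every MPC-PTX library and Sox5 over Sox6 overlaps between the lines.

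Sox4, a group C factor of progenitor cells, was the most abundant SOX gene per length in both lines and the only member that was lower in MPC-PTX. It lies on the reverse strand at chr13:28948919-28953713. It was counted at 601.6, 604.8 and 756.8 CPM in MPC and 476.0, 479.6 and 481.5 CPM in MPC-PTX. All MPC-PTX libraries were below the lowest MPC library, and MPC replicate 3 was far above the other MPC libraries. The mean was 654 ± 88.7 CPM in MPC and 479 ± 2.80 CPM in MPC-PTX (SD, n = 3 each). Its log2 fold change was −0.45 (SE 0.097, 95% interval −0.68 to −0.22, adjusted p = 0.0123, edgeR). Without MPC-PTX replicate 1, 2 or 3 the adjusted p was 0.0575, 0.0567 and 0.0557 (edgeR).

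The other group C genes were at or near no count. Sox11 had 0 counts in all 6 libraries, which allows up to 0.0501 CPM over the MPC libraries and 0.0487 over the MPC-PTX libraries, taking 3 counts as the limit of a count of 0. Sox12 had 1 count in MPC and 1 in MPC-PTX. Such limits reflect counting error alone and treat every read as a separate molecule.

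Sox6, a group D factor, had the largest log2 fold change of the members. It lies on the reverse strand at chr7:115470872-116038796. Its counts were 70, 45 and 81 in MPC and 244, 227 and 139 in MPC-PTX, or 3.72, 2.32 and 3.89 CPM and 10.4, 10.2 and 8.26 CPM. The lines did not overlap, although MPC replicate 2 was low in MPC and MPC-PTX replicate 3 was low in MPC-PTX. The mean was 3.31 ± 0.862 CPM in MPC and 9.64 ± 1.2 CPM in MPC-PTX (SD, n = 3 each). The log2 fold change was 1.54 (SE 0.21, 95% interval 1.05 to 2.03, adjusted p = 0.00184, edgeR). The adjusted p was at most 0.0129 when any library was left out. Of all tested genes, 98.1% had a smaller log2 fold change.

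Sox5, the close relative of Sox6 with which it acts in cartilage, was measured on few reads. It lies on the reverse strand at chr6:143828425-144781977. It had 13, 16 and 21 counts in MPC and 38, 48 and 26 counts in MPC-PTX. Scaled to CPM these were 0.691, 0.825 and 1.01 in MPC and 1.62, 2.16 and 1.54 in MPC-PTX, with no overlap. This gave a log2 fold change of 1.07 (SE 0.26, 95% interval 0.47 to 1.68, adjusted p = 0.0190, edgeR). The adjusted p was 0.0667 without MPC replicate 2, 0.0544 without MPC-PTX replicate 1 and 0.0862 without MPC-PTX replicate 2 (edgeR), and 0.0997 with limma voom and a weight per line, an alternative chosen after seeing the data.

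Sox13, the remaining group D gene, was at 22.2, 20.9 and 17.7 CPM in MPC and 20.03, 22.8 and 20.4 CPM in MPC-PTX. The lines overlapped, with a log2 fold change of 0.056 (95% interval −0.21 to 0.32, adjusted p = 0.739, edgeR).

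**Figure D3:**
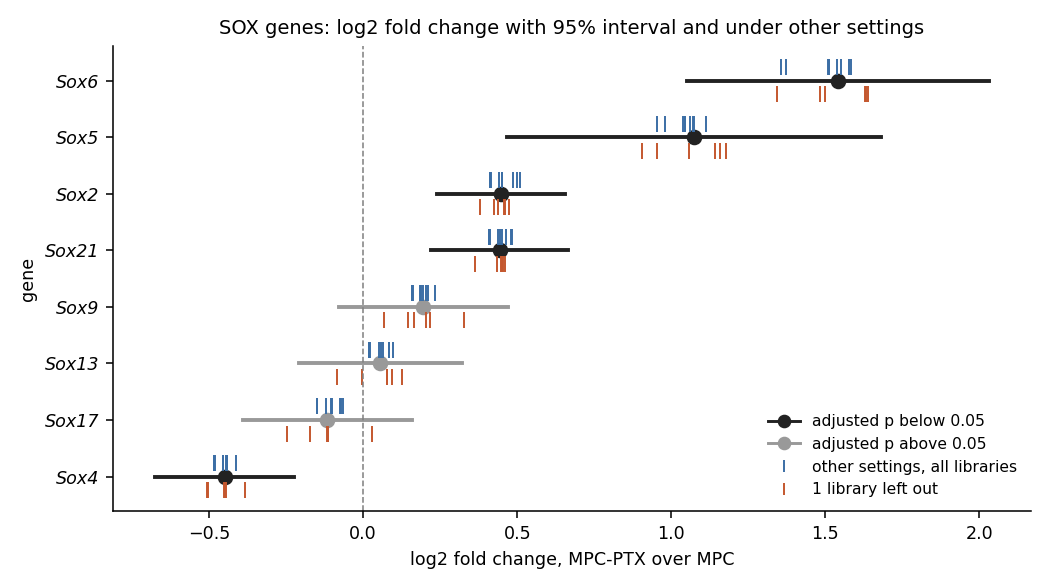
Log2 fold change of MPC-PTX over MPC for the tested SOX genes, as points with 95% intervals, with ticks for the other settings (above) and for each library left out (below). The intervals of Sox6, Sox5, Sox2 and Sox21 lie above 0 and that of Sox4 below 0, while those of Sox9, Sox13 and Sox17 include 0.

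Sox9, the progenitor factor of group E, lies on the forward strand at chr11:112782224-112787760. It was at 44.3, 35.1 and 33.4 CPM in MPC and 44.7, 42.5 and 41.7 CPM in MPC-PTX. MPC replicate 1 lay within the range of the MPC-PTX libraries, above the other MPC libraries. The log2 fold change was 0.19 (SE 0.12, 95% interval −0.080 to 0.47, adjusted p = 0.254, edgeR), and it depended on the MPC library left out. Without MPC replicate 1 it was 0.33 with an adjusted p of 0.0142 (edgeR), and without MPC replicate 3 it was 0.067 with an adjusted p of 0.575 (edgeR).

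Of group F, Sox7 had 1 count in MPC and 1 in MPC-PTX. Sox17, the endoderm factor, is not among the 10 members but was the only other SOX gene of 10 that could be tested. It was at 82.7, 64.1 and 61.5 CPM in MPC and 63.9, 64.3 and 63.9 CPM in MPC-PTX, with a log2 fold change of −0.12 (95% interval −0.39 to 0.16, adjusted p = 0.491, edgeR). Without MPC replicate 3 the value was −0.25 with an adjusted p of 0.0405 (edgeR), and without MPC replicate 1 it was 0.028. Of the other SOX genes, Sox3, Sox8 and Sox15 had at most 1 count in a library, and Sox1, Sox10, Sox14, Sox18, Sox30 and Sry had 0 in all.

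To compare genes with each other, the level was expressed as CPM per kilobase of exon. In MPC the order was Sox4 at 136, Sox2 at 25.2, Sox17 at 14.6, Sox9 at 9.09, Sox21 at 8.03, Sox13 at 4.71, Sox6 at 0.223 and Sox5 at 0.0585 CPM per kilobase. Sox9 and Sox21 overlapped between libraries in MPC, and the other neighbours in this order did not. In MPC-PTX the order was Sox4 at 99.9, Sox2 at 34.3, Sox17 at 13.4, Sox21 at 10.9, Sox9 at 10.4, Sox13 at 4.89, Sox6 at 0.650 and Sox5 at 0.124 CPM per kilobase. There the lowest Sox21 library and the highest Sox9 library were both at 10.8 CPM per kilobase. Sox6 and Sox5, with the larger fold changes, thus had the lower levels in both lines. The share of Sox4 in the summed level of the SOX genes was 68.6% in MPC and 57.2% in MPC-PTX, and that of Sox2 was 12.7% and 19.7%. In bulk RNA, fewer cells with a transcript and less of it per cell cannot be told apart.

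**Figure D4:**
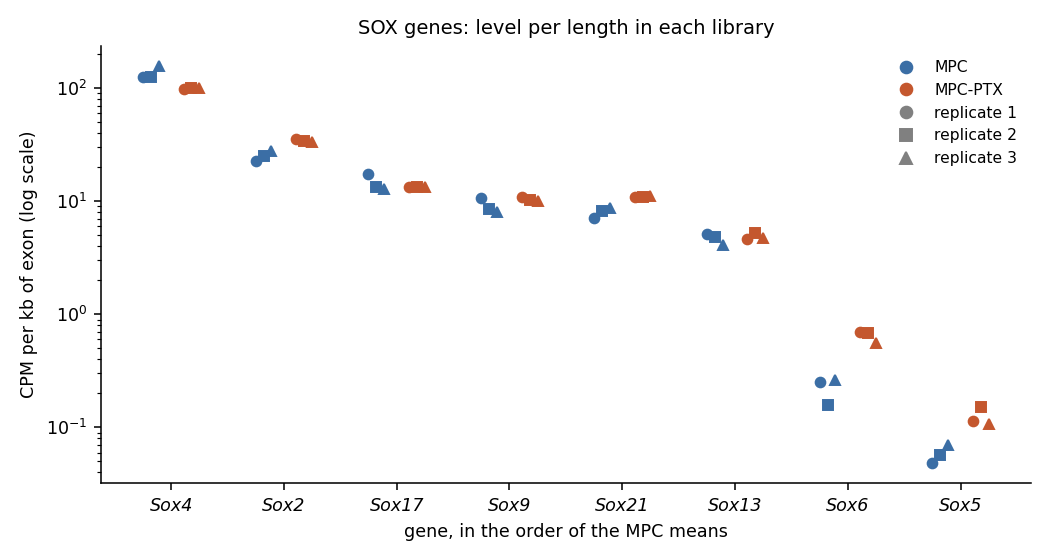
Level of each tested SOX gene in CPM per kilobase of exon on a log axis, with points for the libraries of MPC and MPC-PTX. Sox4 is highest and Sox5 lowest in both lines.

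Genes near the members were listed to see whether their surroundings moved with them. Within 1 Mb of the 5 members that passed the test lay 22 tested genes. Of these, 2 were higher, C2cd5 near Sox5 and Gpr180 near Sox21, both named after their values were seen. The others did not pass the test. Over all tested genes, 14.1% were higher and 15.6% lower. The median log2 fold change of the 22 was 0.078, with a range of −0.34 to 0.46. No gene of the table overlapped a member. Antisense and overlapping transcripts of Sox2, Sox5 and Sox6 are not analysed here, and since the use of strand in counting is not given in the sources used here, their reads cannot be told apart from those of the SOX genes.

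Among 20 tested genes of other HMG-box proteins, 2 were higher and 7 lower, where 14.1% of all tested genes were higher and 15.6% lower. The median log2 fold change of the 20 was −0.054. The number lower was 4 without MPC replicate 2 or any MPC-PTX replicate and 11 without MPC replicate 3, where 4 were higher. Tox, which encodes an HMG-box factor known from T cell development, had 18, 14 and 19 counts in MPC and 0 in every MPC-PTX library. With 3 counts over the line as the limit for MPC-PTX, it was 17.5-fold lower there, a value that leaves out the counting error of the MPC reads. Tox passed the filter on low counts through MPC alone. The TCF genes, which bind ACAAAG in WNT signalling, were picked out after their values were seen. Tcf7 had a log2 fold change of 0.53, and Tcf7l1 and Tcf7l2 had −0.66 each, all of which passed the test.

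Of 5 genes listed as targets of group C factors, 4 were tested. Of these, 2 were higher, beside 14.1% of all tested genes, and the other 2 did not pass the test. Tubb3, a tubulin of neurons that is also made in tumour cells, had 52, 20 and 20 counts in MPC and 308, 255 and 194 in MPC-PTX, a log2 fold change of 2.94 (SE 0.36, adjusted p = 0.00142, edgeR). Sema3c, a secreted guidance factor named after its value was seen, had a log2 fold change of 0.99. Tead2 and Ezh2 did not pass the test, with log2 fold changes of −0.031 and −0.011.

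Of 15 genes listed for the SOX2 network of pluripotent and neural progenitor cells, 5 were tested. Of these, 2 were higher and the others did not pass the test, where 14.1% of all tested genes were higher and 15.6% lower. Pou5f1, Lin28a, Utf1, Fgf4, Zfp42 and Prdm14 had no count in any library. Nanog had 0 counts in MPC and 3, 1 and 2 in the MPC-PTX libraries. Klf4 was at 7.63 ± 0.861 CPM in MPC and 24.9 ± 1.61 CPM in MPC-PTX (SD, n = 3 each), and its log2 fold change was 1.70. Nes, which encodes an intermediate filament of neural progenitors, had at most 6 counts in an MPC library and 15 to 29 in MPC-PTX. Its log2 fold change was 2.18. Nes passed the filter on low counts through MPC-PTX alone, so the filter favoured a call as higher and the call is no support for a rise of the list. Of the POU factors that pair with SOX proteins, 2 of 11 were tested and 0 passed with edgeR, although 1 was lower at an unadjusted p below 0.05 and also by DESeq2, and up to 2 were when a library was left out.

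The cartilage genes that SOX9 activates with SOX5 and SOX6 were low in both lines. Of 15, 3 could be tested, and 0 passed with edgeR, with DESeq2 or at an unadjusted p below 0.05. With edgeR, 29.7% of all tested genes passed. Col2a1, the classical target, was at 1.34 ± 0.337 CPM in MPC and 1.69 ± 0.103 CPM in MPC-PTX (SD, n = 3 each), with a log2 fold change of 0.33.

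Lists of gut tissues in which SOX2 and SOX9 act had more genes lower than higher. The shares over all tested genes were 14.1% higher and 15.6% lower. Of 12 tested genes of the squamous foregut, 3 were higher and 6 lower. Krt14, a basal keratin, was higher (log2 fold change 5.95), while the basal keratin Krt15 (−3.58) and the cornified envelope genes Ivl (−5.21) and Sprr1a (−3.54) were lower. The other higher genes were Trp63 (1.81) and Krt6a (1.67), and the other lower ones Krt4 (−1.99), Krt13 (−0.47) and Sprr3 (−2.68). Krt6a was not called with limma voom and a weight per line. Krt13 was not called with library size alone (adjusted p = 0.0516, edgeR) or a GC and length correction (adjusted p = 0.105, edgeR). Its call was also lost without MPC replicate 2 or any MPC-PTX replicate (adjusted p 0.103 to 0.115, edgeR). The call of Sprr3 was lost without any MPC-PTX replicate (adjusted p 0.0564 to 0.0667, edgeR). Without MPC replicate 3, 5 were higher, and the number lower was 4 to 6 when a library was left out. Of 7 gastric genes, 1 was higher and 6 lower, with a median of −1.98. The lower ones included Anxa10 (−8.62), the aspartic protease Ctse (−7.54), Gkn3 (−3.08) and Psca (−1.98). The higher one was Bhlha15 (1.68, adjusted p = 0.00761, edgeR), named after its value was seen. Bhlha15 had 5, 6 and 5 counts in MPC and 18, 22 and 15 in MPC-PTX. It passed the filter on low counts through MPC-PTX alone, and it was not called with limma voom and a weight per line. Of 7 intestinal genes 5 were lower and none higher, by edgeR and DESeq2 and at an unadjusted p below 0.05, with a median of −2.44. Among them were the microvillus gene Vil1 (−6.84), the transcription factor Hnf4a (−6.11), Lgals4 (−2.61) and Cdh17 (−2.44). Of 13 gut progenitor genes, 2 were higher and 4 lower. Without MPC replicate 2 or any MPC-PTX replicate 1 was higher, and without MPC replicate 3 there were 4. The number lower was 3 to 5 when a library was left out. Mex3a, among the lower ones (−0.37), had an adjusted p of 0.0489 (edgeR). It was 0.0744 with library size alone and 0.0571 with the replicate block (edgeR). Aqp5, a water channel of gastric stem cells, had a log2 fold change of 1.10 (adjusted p = 0.0267, edgeR), which was lost without MPC replicate 2 or any MPC-PTX replicate (adjusted p 0.0690 to 0.0862). Ephb2, a receptor of crypt progenitors, had −1.27 and Hopx −1.06.

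**Figure D5:**
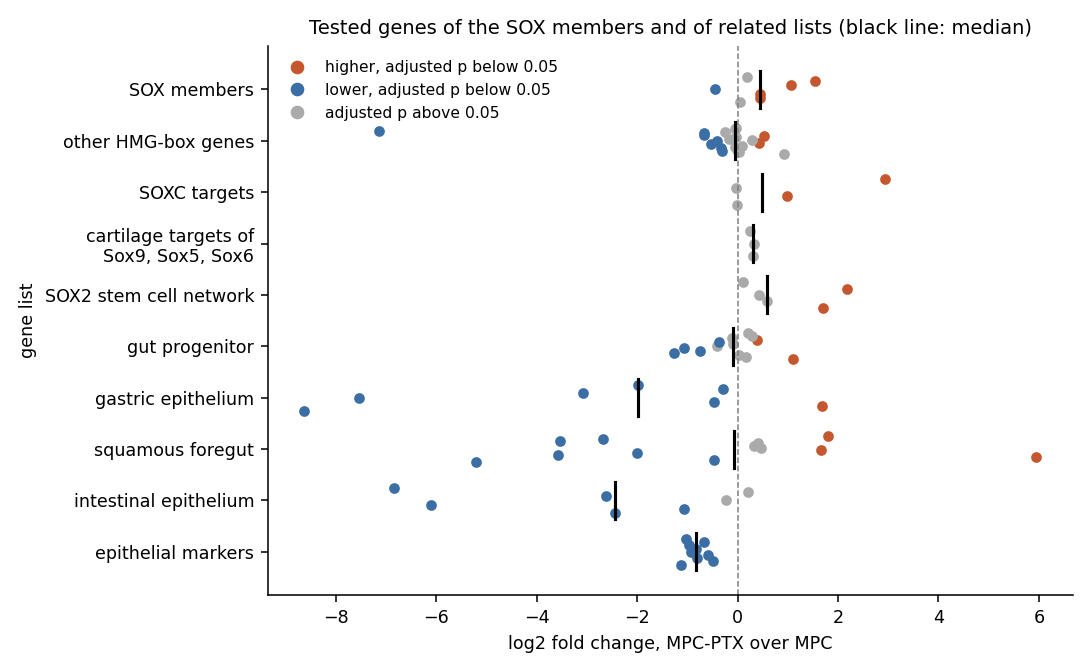
Log2 fold changes of the genes in each list, a point per tested gene, with the list medians. The gastric, intestinal and epithelial lists have medians of −1.98, −2.44 and −0.82, while the SOX members have 0.44.

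Markers of other cells were counted beside these results. All 9 epithelial markers were lower in MPC-PTX, where 15.6% of all tested genes were lower. Among them were Cldn4 (log2 fold change −1.13) and Krt8 (−1.02). The 9 markers summed to 9717 to 11226 CPM in MPC and 5858 to 6042 CPM in MPC-PTX. Fibroblast markers summed to 9.88 to 10.9 CPM in MPC and 8.71 to 10.0 CPM in MPC-PTX, with Col1a1 lower (log2 fold change −0.80). Pdgfra, the other fibroblast marker tested, had a positive log2 fold change of 0.36, with 3.58 CPM in MPC and 4.59 CPM in MPC-PTX on average. It did not pass the test (adjusted p = 0.121, unadjusted p = 0.0492, edgeR). Leukocyte markers summed to 11.3 to 12.8 and 9.74 to 10.5 CPM. Endothelial markers summed to 104 to 115 CPM in MPC and 63.5 to 65.7 CPM in MPC-PTX, of which Flt4, at 103 and 58.9 CPM on average, was lower. Glial and neuronal markers, which would come with Sox10, summed to 1.06 to 1.59 CPM in MPC and 0.982 to 1.25 CPM in MPC-PTX. Of the markers, 2 of 10 fibroblast, 1 of 8 leukocyte, 4 of 12 endothelial and 1 of 8 glial and neuronal genes were high enough to be tested, and Cldn5, Elavl4 and Snap25 had no count in any library. The part of these markers in the SOX differences was not tested.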

How the data were processed

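Poly-A RNA libraries of MPC and MPC-PTX (3 each, 1 batch in the labels; the study's text calls the lines MTC and MTC-R) were filtered by the authors with fastp 0.22.0 and mapped with HISAT2 2.1.0, per the labels and the submitters' processing notes. The authors deposited raw read counts per gene, not normalized and not pooled. The genome release, annotation, counter and use of strand are not given in the sources used here, so counts of overlapping genes are uncertain.

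Counts were scaled with TMM, filtered with filterByExpr (minimum count 10, by line) and tested with edgeR 4.0.16 (glmQLFit robust, glmQLFTest, R 4.3.3) on 11795 genes with Benjamini-Hochberg adjustment. A gene low in 1 line could pass the filter through the other line alone, which favours a call in that direction. The standard error is the log2 fold change divided by the root of F. The fit takes the same spread for both lines in each gene, although MPC libraries varied more. The steps were tested on simulated data, in which false calls by edgeR were on average somewhat above the 5% asked for when both lines had the same spread. They were close to it when each line had its own, so adjusted p-values near 0.05 are approximate. The simulation changed far fewer genes than were called here, by more than Sox2, Sox4 and Sox21 changed. It drew no GC or length bias, so its share of false calls need not hold for these data. limma voom with a weight per line (limma 3.58.1), an alternative chosen after seeing the data, made more false calls than edgeR when each line had its own spread. An exact permutation test of 3 against 3 libraries cannot go below 0.1. No replicate pair agreed within sampling noise (chi-square per gene 1.83 to 61.1). Positions and exon lengths were taken by Ensembl ID from GENCODE M21 (GRCm38) and promoters from RefSeq (GRCm38.p6). DESeq2 1.42.0, other scalings, filters, a GC and length correction, a replicate block, glmTreat and leaving out each library were alternatives.

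Named were all SOX genes, Trp53, Cdh1 and, per list, up to 4 genes with the largest absolute log2 fold change among those past the test and above 1, besides the markers used to check the cell type. Other genes, whether or not this is said at their place, should be read as chosen after their values were seen. The members and lists were chosen with earlier results of these data known. Groups of 3 were not tested for outlying libraries.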

Additional observations from a re-analysis of the deposited data

How the results depend on the processing

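Under DESeq2, its size factors, library size alone, no filter, at least 10 counts in every library, the replicate block and the GC and length correction, the numbers of SOX members higher and lower stayed at 4 and 1. With limma voom and a weight per line, chosen after seeing the data, they were 3 and 1, and Sox5 was not called. Against a log2 fold change of 1 (glmTreat), 0 members were higher and 0 lower, with 1 higher at an unadjusted p below 0.05, and the numbers were 138 higher and 255 lower over all tested genes and 3 and 13 over the listed context genes, since this test asks for a larger change. The GC and length correction gave 2623 genes higher over all tested genes, and 2618 with the replicate block as well, against 1668 without; the cause was not tested. Leaving out each library gave 1 to 5 members higher and 0 to 1 lower, 803 to 3020 tested genes higher and 1077 to 3227 lower, and 11 to 20 context genes higher and 33 to 47 lower. The highest numbers over all tested genes were those without MPC replicate 3, and the numbers without MPC replicate 2 or any MPC-PTX replicate were below those with all libraries. The log2 fold change of Sox13 ranged from −0.084 (without MPC replicate 3) to 0.13, with −0.0026 without MPC-PTX replicate 2, that of Sox9 from 0.067 to 0.33, and that of Sox17 from −0.25 to 0.028 (without MPC replicate 1).

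Same-numbered libraries did not deviate together in every pair (correlations 0.151, −0.0227 and 0.173 across genes), so the numbers were not taken to pair the libraries. With the replicate block 1787 genes were higher and 1717 lower. Sox5, Sox7, Sox11 and Sox12 are limited by depth.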
